A study of Platycodon grandiflorus with 6 samples.

Results

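AP2-EREBP proteins are a large family of plant transcription factors named after the AP2 domain, with which they bind DNA. Here they were followed in callus and leaves of *Platycodon grandiflorus* (balloon flower). The members were the assembled transcripts (unigenes) that the authors' table assigns to the AP2-EREBP family, with 4 of 185 left out because their closest database protein came from peanut (*Arachis*). This left 181 unigenes of 152777. The assembly joins similar contigs under 1 cluster (CL) number, so the 181 unigenes stood for 98 clusters or single unigenes (both called clusters here) of 94586. Counts of all contigs of a cluster were summed, since reads are shared among near-identical contigs. No genome was used, so a member is a transcript and has no chromosome position, and a gene name is that of its closest SwissProt protein.

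The 3 callus libraries came from stem explants with nodes on MS medium with the auxin NAA (1.0 mg/L) and the cytokinin 6-BA (0.5 mg/L), cultured for 50 days at 25 °C with 12 h of light a day. The 3 leaf libraries came from leaves of the original plant. Callus is thus compared with an organ that it did not grow from, and the explant, the added hormones and the culture differ together with the tissue, so their parts cannot be told apart. The library totals lay between 17963458 and 19444638 expected counts. Replicates were more alike among callus libraries (Pearson r of log2(FPKM + 1) from 0.9289 to 0.9641) than among leaf libraries (0.7421 to 0.8032). Of the leaf markers, summed over 89 unigenes of chlorophyll a-b binding proteins and the small Rubisco subunit, callus held 9275 ± 284 FPKM and leaves 27850 ± 3181 FPKM (SD, n = 3 each), so callus was not free of photosynthetic transcripts. Of the markers of dividing cells (B- and D-type cyclins and PCNA, 70 unigenes), callus held 283 ± 37.0 FPKM and leaves 138 ± 17.0 FPKM.

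The family is divided by its domains. Ethylene-responsive factors (ERF) and dehydration-responsive factors (DREB) carry a single AP2 domain, AP2-like proteins carry a pair of them, and RAV proteins join an AP2 domain to a B3 domain. In Arabidopsis, ERF proteins are known to act at the end of the ethylene signal and in wounding, defence and low oxygen, DREB proteins in cold and drought, and AP2-like proteins in meristems, flowers and seeds. By SwissProt name, the 181 unigenes comprised 99 ethylene-responsive, 31 dehydration-responsive, 35 AP2-like and 8 RAV unigenes, and 8 with other names. These groups follow names and not counted domains, so a name group can hold proteins of another domain class. A Pfam AP2 domain was the listed domain of 155 unigenes and a B3 domain that of 8, while 7 had another entry and 11 had none. The closest SwissProt protein was from Arabidopsis for 133 unigenes. Their lengths ran from 270 to 4658 bp with a median of 1575 bp, against a median of 1042 bp over all unigenes.

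AP2-EREBP transcripts made up a larger part of the callus transcriptome. They took 0.370%, 0.558% and 0.407% of all counts in callus replicates 1 to 3, and 0.155%, 0.175% and 0.188% in leaf replicates 1 to 3. Every callus library lay above every leaf library, and the means were 0.445 ± 0.0999% in callus and 0.173 ± 0.0167% in leaves (SD, n = 3 each), a ratio of 2.58. An exact two-sided permutation test gave p = 0.1, the smallest p that 3 against 3 libraries allow. In bulk tissue, fewer cells that express a gene and less RNA per cell cannot be told apart.

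Tested cluster by cluster, the family leaned to callus. Of 98 clusters, 85 passed the filter on low counts, 42 rose in callus and 8 fell (edgeR quasi-likelihood test, Benjamini-Hochberg adjusted p of 0.05 or less over all 32898 clusters tested). Over all clusters tested, 22.0% rose and 20.8% fell. On the log2 scale, the median change of the 85 clusters was 1.47, against -0.05 over all. With DESeq2, 47 of the 97 clusters with counts rose and 9 fell, where 10.0% and 9.56% of all clusters with counts did. These sets differ in depth, since only 32898 of all 89061 clusters with counts passed the filter, against 85 of the 97. Part of this contrast can therefore come from sparse clusters in the background. In FPKM, all 3 callus libraries lay above all 3 leaf libraries in 51 of the 85 clusters and below them in 8, where the shares over all clusters were 32.2% and 26.8%. Across all transcription factor families, 357 of 1282 clusters rose and 224 fell. Leaving out callus replicate 1 or callus replicate 3 took the 8 falls to 4 in each fit, while the rises stayed between 33 and 40 over the 6 fits that leave out 1 library. Shares over all clusters were not counted in these fits.

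At the level of single unigenes the edgeR calls depended more on single libraries. Of the 150 unigenes tested, 46 rose and 7 fell, where 14.2% of all unigenes tested rose and 12.3% fell. In the edgeR fit without callus replicate 1 the counts were 29 and 4, without callus replicate 2 they were 7 and 3, and without callus replicate 3 they were 3 and 0. DESeq2, on all 6 libraries, called 62 higher and 14 lower of 178 unigenes with counts, against 10.5% and 10.7% of all. Here too the depth differs, since only 66307 of all 143094 unigenes with counts passed the filter, against 150 of the 178. By contrast, 34 of the 50 called clusters, 31 that rose and 3 that fell, were called in all 6 of these fits. The 3 falls were ERF096, ERF061 and a RAP2-11 unigene. Calls over all features were not counted in the fits that leave out 1 library. A loss of calls here can therefore not be set apart from that of all features. Results for the members are therefore given per cluster below, and gene lists from outside the family per unigene and per cluster.

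**Figure D1:**
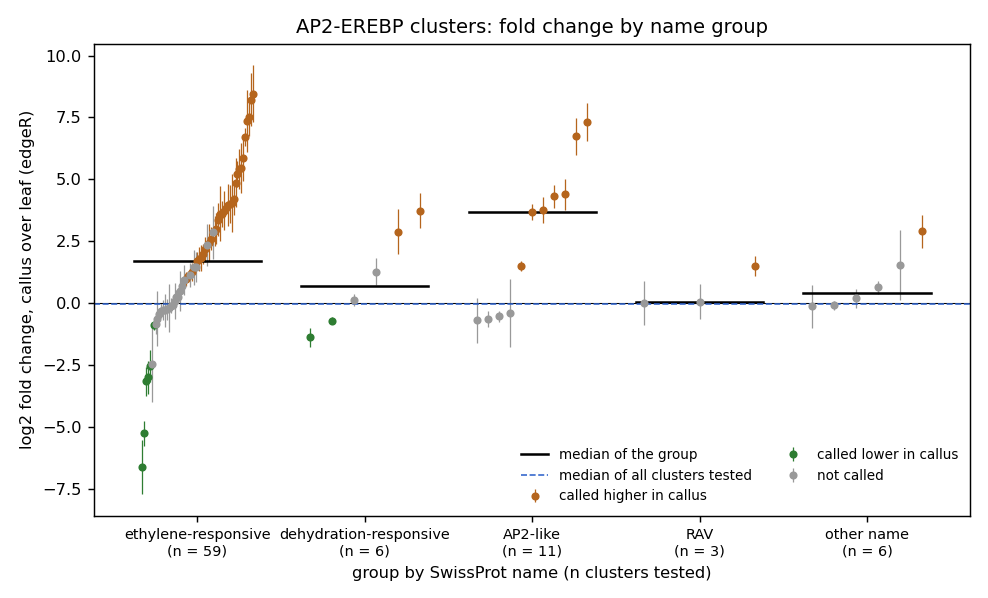
Log2 fold change of callus over leaf for the 85 tested AP2-EREBP clusters, sorted within each SwissProt name group on the horizontal axis; points are edgeR estimates, error bars are SE, black lines are group medians and the dashed line is the median of all clusters tested (-0.05). The AP2-like median stands at 3.67 and the ethylene-responsive median at 1.72, and both tails belong mostly to the ethylene-responsive group; the fitted values of the 4 clusters without a leaf count depend on the model and are not bounds.

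The groups differed in how their members moved. Over all clusters tested, 22.0% rose, 20.8% fell and the median log2 fold change was -0.05. Among the ethylene-responsive clusters, 31 of 59 rose and 6 fell, with a median log2 fold change of 1.72. Of the 11 tested AP2-like clusters, 7 rose, with a median of 3.67. Dehydration-responsive clusters went both ways, with 2 of 6 rising and 2 falling and a median of 0.71. The RAV group had 1 rise among 3 clusters and a median of 0.07, and the clusters with other names had 1 rise among 6 and a median of 0.42. The 4 clusters without a leaf count lie above their group medians even at their lower bounds, so these medians do not depend on their fitted values. Differences between the groups were not tested.

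By summed level, the ethylene-responsive and RAV groups held most of the family's transcripts in both tissues. Ethylene-responsive unigenes summed to 1757, 2630 and 1839 FPKM in callus replicates 1 to 3 and to 754, 730 and 786 FPKM in leaf replicates 1 to 3. The RAV sums were 150, 329 and 191 FPKM in callus and 45.3, 132 and 108 FPKM in leaves. Every callus library exceeded every leaf library in both groups. AP2-like unigenes summed to 91.8, 146 and 158 FPKM in callus and to 43.6, 57.7 and 49.8 FPKM in leaves, again without overlap. Dehydration-responsive unigenes summed to 42.8, 75.7 and 54.6 FPKM in callus and to 51.4, 60.6 and 47.3 FPKM in leaves, and these ranges overlapped.

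**Figure D2:**
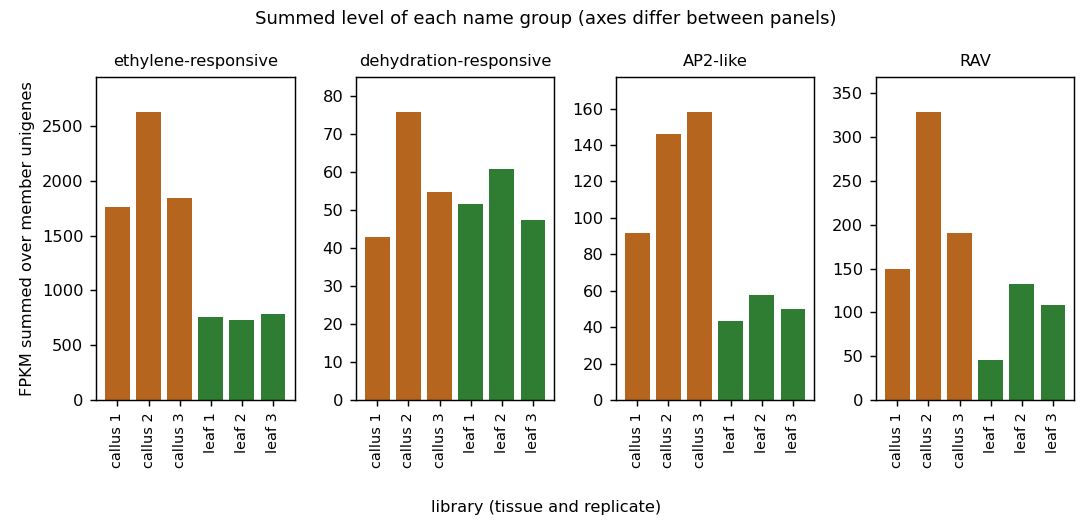
FPKM summed over the member unigenes of 4 name groups (vertical axes, which start at 0 and differ between panels) in each library, with callus replicates 1 to 3 in brown at the left and leaf replicates 1 to 3 in green at the right of each panel. Callus bars stand above all leaf bars for the ethylene-responsive, AP2-like and RAV groups, and overlap them for the dehydration-responsive group, where callus averaged 57.7 FPKM and leaves 53.1 FPKM.

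AP2-like proteins of the AINTEGUMENTA and PLETHORA kind, which keep meristem cells dividing in Arabidopsis, were higher in callus in each of their 5 tested clusters. The cluster named for PLT2, a regulator of the root stem cell niche in Arabidopsis (CL3042), has ANT as its nearest database protein, and 1 of its 4 contigs has ANT as its SwissProt match. It had 9.31, 23.2 and 27.6 FPKM in callus replicates 1 to 3, against 0.72, 1.19 and 1.04 FPKM in leaf replicates 1 to 3. Its lowest callus library was well above its highest leaf library, and the log2 fold change was 4.31 ± 0.45 (SE, adjusted p = 0.00147). ANT, which sets organ size through cell number (CL5674), had 9.02, 18.3 and 25.0 FPKM in callus, against 0.28, 0.11 and 0.29 FPKM in leaves. Leaf libraries were near 0 throughout, and the log2 fold change was 6.73 ± 0.74 (adjusted p = 0.00169). For PLT2 and ANT alike, callus replicate 1 was the lowest callus library.

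The other members of this kind were less abundant and moved the same way. AIL6, which acts with ANT in flower and shoot meristems (CL619), had 2.65, 6.83 and 4.77 FPKM in callus, against 0.45, 0.56 and 0.26 FPKM in leaves, a log2 fold change of 3.77 ± 0.54 (adjusted p = 0.00358). AIL7, a shoot meristem relative (CL6791), had 2.02, 7.68 and 6.11 FPKM in callus, against 0.19, 1.38 and 0.19 FPKM in leaves. The groups did not overlap, and in counts the cluster had 79, 289 and 228 in callus against 7, 11 and 7 in leaves. Most of the 1.38 FPKM in leaf replicate 2 came from a contig without the AP2-EREBP tag, while the AIL7 contig had 0.25 FPKM there. The log2 fold change was 4.39 ± 0.63 (adjusted p = 0.00361). The AIL1 unigene (Unigene26572_All) had 18, 18 and 26 counts in callus and 0 counts in each leaf library, which makes it at least 20.0-fold higher in callus when 3 counts over the group are taken as the leaf limit (adjusted p = 0.00418). Intervals and limits of this kind cover counting error only. They rest on counts summed over the 3 libraries of a tissue, so they leave out the variation between libraries. The reads also carry no molecular identifiers.

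The callus and meristem regulators that Arabidopsis work has named (a list of AIL, PLT, ANT, WIND-type, ESR-type and ERF115 names) had 9 tested clusters. Of these, 7 rose, where 22.0% of all clusters tested did, and the median log2 fold change was 3.77 against -0.05 over all. The other 2 were RAP2-13 clusters described below, and the 7 include a RAP2-13 unigene nearest to an ERF060-like protein. Every AINTEGUMENTA and PLETHORA call held in each fit that left out 1 library. The summed dividing-cell markers given above were also higher in callus. Of their 43 tested unigenes 18 rose, against 14.2% of all unigenes tested. Of their 25 clusters 12 rose and 1 fell, against 22.0% and 20.8% of all. Their part in the regulator calls was not tested.

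Other AP2-like clusters were more abundant and moved less. The cluster closest to rice APETALA2-like protein 5, whose nearest database protein is grape APETALA2, a regulator of floral organs and seed size (CL2858), had 34.0, 57.2 and 53.5 FPKM in callus, against 18.4, 18.6 and 14.8 FPKM in leaves. No leaf library reached the callus range, and the log2 fold change was 1.52 ± 0.21 (adjusted p = 0.00317). A cluster matching Arabidopsis At2g41710 (CL4875) had 8.95, 13.6 and 12.5 FPKM in callus, against 0.91, 0.61 and 1.15 FPKM in leaves, a log2 fold change of 3.67 ± 0.33 (adjusted p = 0.000967). Only 58.9% of the counts of CL4875 lay in contigs tagged AP2-EREBP, and these alone gave 3.47 ± 0.69 (adjusted p = 0.0103).

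Not all AP2-like clusters were higher in callus. The rice APETALA2-like protein 3 match (CL12620) had 20.2, 22.0 and 23.8 FPKM in callus and 29.2, 38.8 and 21.8 FPKM in leaves, overlapping, with a log2 fold change of -0.53 ± 0.21 (adjusted p = 0.0841). Of 3 clusters matching At1g79700, the abundant one (CL10703) held only 2.32% of its counts in AP2-EREBP contigs and so speaks mostly of other transcripts. Its log2 fold change was -0.64 ± 0.33 (adjusted p = 0.168). The remaining At1g79700 unigenes had estimates of -0.69 and -0.40 and overlapping libraries.

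**Figure D3:**
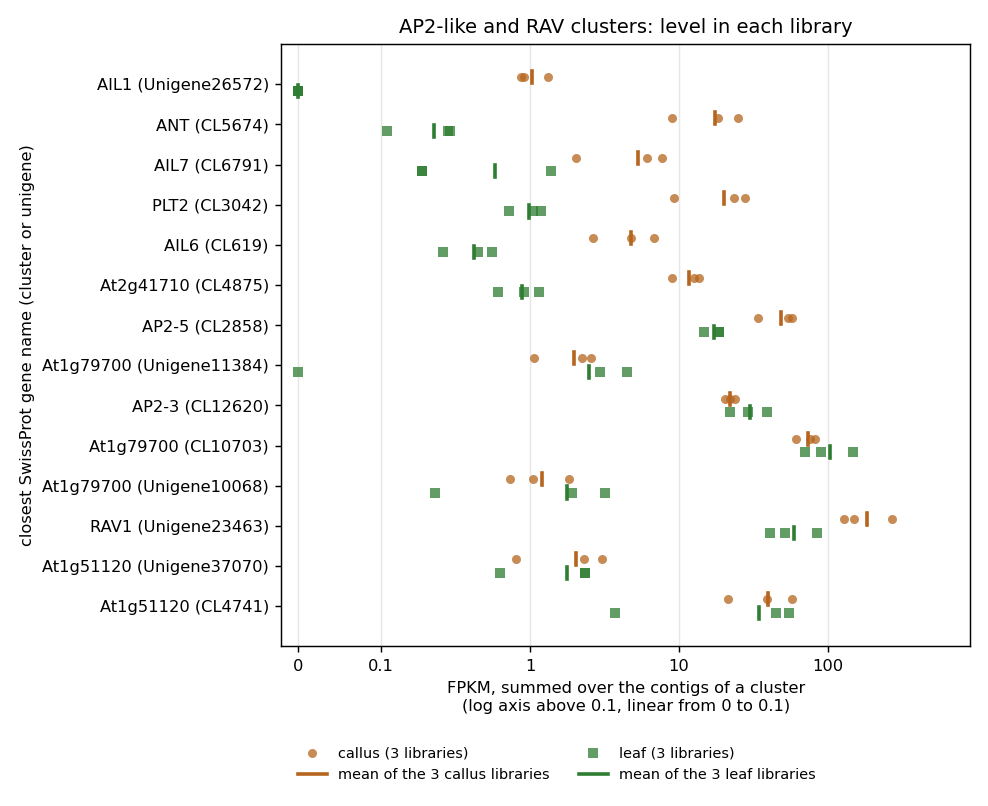
Level of the 11 tested AP2-like clusters (upper rows) and 3 RAV clusters (lower rows), each sorted by fold change; the horizontal axis is FPKM (logarithmic above 0.1), brown circles are the 3 callus libraries, green squares the 3 leaf libraries and vertical bars their means. From AIL1 down to AP2-5 the circles stand to the right of all squares, whereas the 2 At1g51120 rows overlap and show leaf replicate 1 far to the left, at 3.72 FPKM in CL4741.

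RAV proteins, which in Arabidopsis restrain growth and delay flowering, were represented by an abundant RAV1 and a pair of At1g51120 clusters. RAV1 (Unigene23463_All) had 128, 269 and 150 FPKM in callus, against 40.9, 84.8 and 51.2 FPKM in leaves. Its lowest callus library was above its highest leaf library, with a log2 fold change of 1.51 ± 0.39 (adjusted p = 0.0236). Without callus replicate 2, callus replicate 3, leaf replicate 1 or leaf replicate 3 the adjusted p of RAV1 rose above 0.05, to between 0.0523 and 0.0673. The larger At1g51120 cluster (CL4741) had 21.2, 57.4 and 39.1 FPKM in callus and 3.72, 44.8 and 54.5 FPKM in leaves, with leaf replicate 1 far below the other leaves. Its log2 fold change was 0.01 ± 0.89 (adjusted p = 0.996), and without leaf replicate 1 it was -0.53 (adjusted p = 0.281).

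The most abundant member in callus was the cluster of RAP2-12, a group VII ERF that switches on low-oxygen genes in Arabidopsis and is itself broken down when oxygen is present (CL7060). It had 479, 552 and 508 FPKM in callus replicates 1 to 3, against 31.4, 30.4 and 37.6 FPKM in leaf replicates 1 to 3. The libraries of each tissue were close to one another and far from those of the other tissue, and the log2 fold change was 3.86 ± 0.17 (adjusted p = 0.000449), the smallest adjusted p of the family. RAP2-12 alone gave 22.7%, 16.8% and 21.9% of the family's summed FPKM in callus, against 3.37%, 2.96% and 3.60% in leaves. Without it, the family still summed to 2059 ± 593 FPKM in callus and 968 ± 57.9 FPKM in leaves (SD, n = 3 each), a ratio of 2.13.

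A pair of clusters closest to rice EREBP1 had RAP2-3, another group VII ERF, as their nearest database protein. The smaller of them (CL12968) had 96.0, 31.8 and 56.5 FPKM in callus, against 9.42, 11.6 and 8.04 FPKM in leaves, a log2 fold change of 2.60 ± 0.46 (adjusted p = 0.00693). Callus replicate 2 was its lowest callus library, unlike in most of the family. The larger (CL624) had 134, 316 and 283 FPKM in callus, against 134, 59.0 and 98.7 FPKM in leaves, where callus replicate 1 and leaf replicate 1 were almost level. Its log2 fold change was 0.99 ± 0.28 (adjusted p = 0.0336). It was called in 2 of the 6 fits that leave out 1 library, and its AP2-EREBP contigs, 65.6% of the counts, gave 1.54 ± 0.46 (adjusted p = 0.0376). A unigene named RAP2-2 (Unigene71380_All, not tested) ran the other way, with 1.6, 0 and 0 counts in callus and 511, 295 and 8.19 counts in leaves, so that leaf replicate 3 was far below the other leaves.

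RAP2-13 belongs to the group of wound-induced ERF proteins that promote callus formation in Arabidopsis, and it was abundant in both tissues. The main RAP2-13 unigene (Unigene23435_All) had 226, 380 and 226 FPKM in callus, against 105, 67.0 and 151 FPKM in leaves. Its nearest database protein is ERF060-like, while that of the other RAP2-13 clusters is RAP2-4-like. The tissues did not overlap, and the log2 fold change was 1.26 ± 0.35 (adjusted p = 0.0287), with adjusted p between 0.0518 and 0.0758 in the 4 fits, without callus replicate 2, callus replicate 3, leaf replicate 1 or leaf replicate 2, in which the call was lost. The other RAP2-13 clusters had log2 fold changes of 0.68 ± 0.25 (Unigene6770_All, adjusted p = 0.0720) and 0.26 ± 0.29 (CL13516, adjusted p = 0.496). Of these, Unigene6770_All was higher in each callus library than in each leaf library. In CL13516 the AP2-EREBP contig overlapped between the tissues, with 26.0, 19.7 and 18.8 FPKM in callus and 19.2, 6.62 and 18.9 FPKM in leaves.

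ERF115, which drives stem cell division after damage in the Arabidopsis root, was low in both tissues and higher in callus. It had 5.44, 2.82 and 2.90 FPKM in callus, against 0.27, 0.35 and 0.75 FPKM in leaves (Unigene25650_All), a log2 fold change of 2.93 ± 0.61 (adjusted p = 0.0116). A further ERF115 unigene that was too sparse for the test (Unigene33471_All) had 35, 13 and 8 counts in callus and 0 in each leaf library, at least 18.1-fold higher in callus. The nearest database protein of Unigene25650_All is ERF114-like, and that of Unigene33471_All is ABR1-like. The 2 tested members named for cytokinin response factors, ERF proteins that answer to cytokinin in Arabidopsis, rose, where 22.0% of all clusters tested did. CRF2 (Unigene1490_All) had 3.66, 7.13 and 6.13 FPKM in callus, against 0.32, 0.10 and 0.43 FPKM in leaves, a log2 fold change of 4.21 ± 0.63 (adjusted p = 0.00407). CRF5 (Unigene26587_All) had 6.03, 14.7 and 8.93 FPKM in callus, against 1.96, 2.69 and 2.25 FPKM in leaves, a log2 fold change of 1.99 ± 0.40 (adjusted p = 0.0108). Its nearest database protein is PTI6-like, and the member named PTI6 (Unigene30002_All) was not called (adjusted p = 0.0840). The callus medium contained the cytokinin 6-BA, whose part was not tested.

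The flowering list held RAP2-7 and RAV1, and both rose, where 22.0% of all clusters tested did. A cluster was listed by the name of its most abundant contig, so clusters with listed names on other contigs were left out. Of these, CL12620 has contigs named RAP2-7 and was not called, and CL2858 has contigs named for APETALA2 and rose. RAP2-7, also known as TOE1, delays flowering in Arabidopsis and is a target of a microRNA. Its cluster (CL1324) had 36.7, 28.4 and 38.2 FPKM in callus, against 5.87, 8.41 and 13.8 FPKM in leaves, without overlap. The log2 fold change was 1.72 ± 0.35 (adjusted p = 0.0103), and all 9 of its tested contigs had an estimate above 0. By name the cluster was counted in the ethylene-responsive group, although some of its contigs match rice APETALA2-like proteins.

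The 5 largest rises by fitted value were those of AIL1, given above, and of 4 ethylene-responsive unigenes, picked for their size and given as a description. The order rests on the model where leaves had no count, and by their lower bounds some of these lie below members with measured leaf counts, such as ANT. A RAP2-11 unigene, named for a factor of the low-potassium response in Arabidopsis (Unigene27168_All), had 19, 73 and 47 counts in callus and 0 in each leaf library, at least 44.9-fold higher in callus. ERF087 (Unigene14776_All) had 17, 55 and 45 counts in callus and 0 in each leaf library, at least 37.8-fold higher. ERF026 (Unigene34268_All) had 13, 41 and 11 counts in callus and 0 in each leaf library, at least 21.0-fold higher. These 3 were below 4 FPKM in every callus library. ERF110 (Unigene3696_All) stood apart by its level, with 26.6, 57.7 and 32.3 FPKM in callus, against 0.22, 0.34 and 0.03 FPKM in leaves, a log2 fold change of 7.51 ± 0.76 (adjusted p = 0.00132).

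Beyond the rule for named members, ERF113, known as RAP2.6L in Arabidopsis shoot regeneration and wounding, was singled out after its values were seen. It had 77.3, 119 and 78.6 FPKM in callus, against 0.52, 1.11 and 0.82 FPKM in leaves (Unigene1648_All), a log2 fold change of 6.71 ± 0.37. ERF113, RAP2-12 and At2g41710 were the 3 members that edgeR also called higher under the study's own stricter thresholds, which ask for an adjusted p of at most 0.001 and a 2-fold change. By these thresholds edgeR called 1.13% of all clusters tested higher and 1.35% lower, and 0 members lower (9 at an unadjusted p under 0.05). DESeq2 at the same thresholds called 33 of the tested member clusters higher and 4 lower. Its shares over all clusters at these thresholds were not computed, and the edgeR shares are no background for it.

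The largest falls were also in the ethylene-responsive group. ERF096 (Unigene33807_All) had 0.49, 0 and 0.17 FPKM in callus, against 18.3, 11.6 and 35.4 FPKM in leaves, a log2 fold change of -6.61 ± 1.09 (adjusted p = 0.00553). ERF061 (Unigene32760_All) had 0.23, 0.94 and 0.56 FPKM in callus, against 23.03, 19.9 and 18.5 FPKM in leaves, a log2 fold change of -5.25 ± 0.50 (adjusted p = 0.00111). Both were close to 0 in callus and at a moderate level in every leaf library. ERF094, known in Arabidopsis as ORA59, which joins the jasmonate and ethylene signals in defence (CL4217), had 0.78, 1.23 and 1.30 FPKM in callus, against 2.52, 4.69 and 10.5 FPKM in leaves, a log2 fold change of -2.54 ± 0.65 (adjusted p = 0.0226). Its call was lost without any 1 of the 3 callus libraries (adjusted p of 0.0795 to 0.0867).

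A second RAP2-11 unigene (Unigene16768_All) fell, with 1.00, 0.32 and 0.37 FPKM in callus, against 4.71, 4.07 and 5.72 FPKM in leaves, a log2 fold change of -3.15 ± 0.59 (adjusted p = 0.00798). RAP2-11 was the 1 name of 16 shared by several tested clusters that was called in both directions. The unigene that fell is nearest to a WIN1-like database protein and the one that rose to a generic AP2/ERF protein, so they need not be copies of 1 gene. ERF053, a drought-responsive factor in Arabidopsis (Unigene6892_All), had 0.41, 0.84 and 0.31 FPKM in callus, against 1.56, 5.53 and 4.28 FPKM in leaves, a log2 fold change of -2.99 ± 0.66 (adjusted p = 0.0143). Without callus replicate 1 or callus replicate 3 its adjusted p was 0.0577 or 0.0647. The closest approach of the tissues was 0.84 FPKM in callus replicate 2 against 1.56 FPKM in leaf replicate 1.

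ERF3, whose tobacco namesake is a repressor of genes with a GCC box (CL6938), was the most abundant member in leaves and was not called as a cluster. It had 92.8, 136 and 92.4 FPKM in callus and 124, 137 and 110 FPKM in leaves, overlapping, a log2 fold change of -0.42 ± 0.18 (adjusted p = 0.114). Its contigs moved apart in the edgeR unigene fit. Contig 1 had 14.9, 5.73 and 7.40 FPKM in callus, against 70.2, 62.3 and 69.6 FPKM in leaves, and was called lower (-2.83 ± 0.44, adjusted p = 0.0104). Contig 2 had an estimate of 0.78 ± 0.32 without a call (adjusted p = 0.124). By mean FPKM the order in callus was RAP2-12 (513 ± 36.8), RAP2-13 (278 ± 89.2), EREBP1 of CL624 (244 ± 96.7), RAV1 (182 ± 75.7) and an ERF5 cluster (120 ± 102; SD, n = 3). Of these, RAP2-12 stood above its neighbour in every library, and the others overlapped with the next in order. In leaves the order was ERF3 (123 ± 13.6), RAP2-13 (108 ± 42.3), EREBP1 of CL624 (97.2 ± 37.5) and RAV1 (59.0 ± 22.9), each overlapping with the next.

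**Figure D4:**
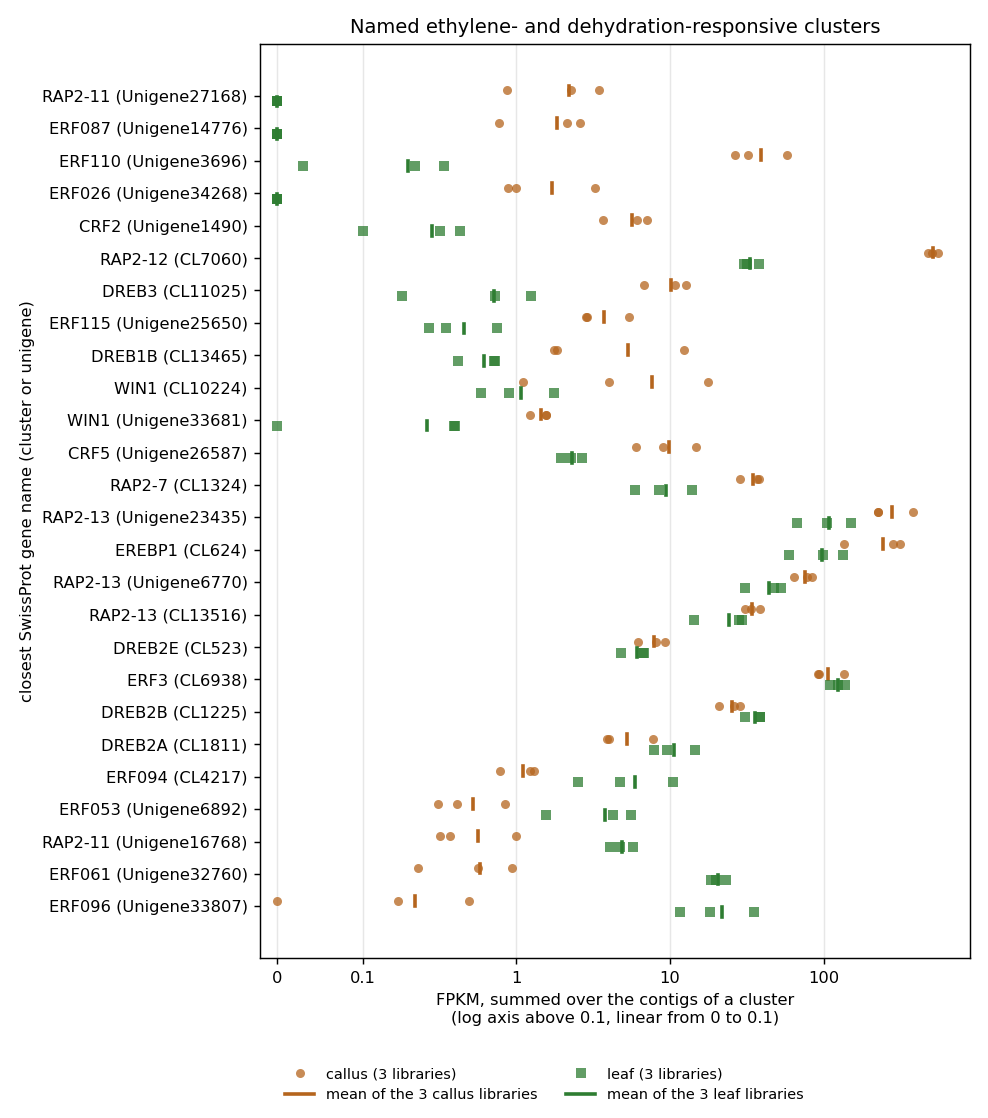
Level of the named ethylene-responsive and dehydration-responsive clusters, sorted by fold change with the largest rise at the top; the horizontal axis is FPKM (logarithmic above 0.1), brown circles are the 3 callus libraries, green squares the 3 leaf libraries and vertical bars their means. RAP2-12 is the rightmost row of circles at 479 to 552 FPKM, and the 5 lowest rows are those whose circles lie furthest left of the squares, from ERF094 to ERF096.

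Dehydration-responsive factors did not share a direction. DREB2A, which turns on drought and heat genes in Arabidopsis (CL1811), had 3.90, 7.79 and 4.02 FPKM in callus, against 9.49, 14.5 and 7.81 FPKM in leaves. Callus replicate 2 was just below leaf replicate 3, and the log2 fold change was -1.38 ± 0.37 (adjusted p = 0.0264). DREB2B, its close relative (CL1225), had 20.9, 28.7 and 25.9 FPKM in callus, against 38.2, 38.6 and 30.6 FPKM in leaves, a log2 fold change of -0.70 ± 0.15 (adjusted p = 0.0140). Neither call was firm. DREB2A was lost without callus replicate 1, callus replicate 3 or leaf replicate 2 (adjusted p of 0.0644 to 0.112), and DREB2B without callus replicate 1 or callus replicate 3 (0.0616 and 0.0788), with DESeq2 (0.0578) and with no filter on low counts (0.0883).

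Other DREB clusters were higher in callus. DREB3 (CL11025) had 6.77, 12.6 and 10.8 FPKM in callus, against 0.73, 0.18 and 1.25 FPKM in leaves, a log2 fold change of 3.74 ± 0.70 (adjusted p = 0.00842), and was called in each fit that left out 1 library. DREB1B, known as CBF1, a switch of the cold response in Arabidopsis (CL13465), had 1.83, 12.4 and 1.76 FPKM in callus, against 0.73, 0.71 and 0.42 FPKM in leaves, a log2 fold change of 2.89 ± 0.90 (adjusted p = 0.0427). Callus replicate 2 decided the size of the DREB1B change, which was 1.53 without it (adjusted p = 0.109), and only the fit without callus replicate 1 kept the call. DREB2E (CL523) had 6.14, 8.10 and 9.21 FPKM in callus and 4.82, 6.69 and 6.81 FPKM in leaves, with a log2 fold change of 0.14 ± 0.25 (adjusted p = 0.665). The cold and drought list as a whole had 4 tested clusters, of which 1 rose and 2 fell, with a median of -0.28. Of all clusters tested, 22.0% rose and 20.8% fell, with a median of -0.05.

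Members with the SwissProt name WIN1, which turns on wax and cutin synthesis in the Arabidopsis epidermis, gave values without a call. The RAP2-11 unigene that fell also has a WIN1-like protein as its nearest database protein. One WIN1 cluster (CL10224) had 17.8, 1.10 and 3.98 FPKM in callus and 0.59, 0.89 and 1.75 FPKM in leaves, so that callus replicate 1 stood far above the rest. Its log2 fold change was 2.87 ± 1.07 (adjusted p = 0.0737, and 0.0112 with DESeq2). Another WIN1 unigene (Unigene33681_All) had 1.55, 1.23 and 1.55 FPKM in callus and 0.40, 0 and 0.39 FPKM in leaves, with a log2 fold change of 2.35 ± 0.83 (adjusted p = 0.0626, and 0.0473 with DESeq2). A further pair of unigenes with a WIN1 match (Unigene41837_All and Unigene47228_All) had counts in leaf replicate 2 alone, 74.8 and 37.1, and their nearest database protein was a rab3 GTPase-activating protein.

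Many members were highest in callus replicate 2. This library was the highest of the 3 callus libraries in 46 of the 85 tested clusters (54.1%), against 35.9% of all clusters tested. It was at least 2-fold above the next callus library in 10 clusters (11.8%), against 2.65% of all. Among them were DREB1B (6.77-fold), ERF5 clusters (Unigene23287_All, 5.83-fold, and CL4401, 3.61-fold), named after a tobacco factor of pathogen defence, and ERF104 (4.72-fold), which the Arabidopsis flagellin response releases from a kinase. The larger ERF5 cluster (CL4401) had 66.2, 239 and 56.6 FPKM in callus, against 12.7, 6.23 and 14.2 FPKM in leaves, so that callus lay above leaves with and without callus replicate 2. Without callus replicate 2 the median log2 fold change of the member clusters was 1.11, and without any other 1 library it was between 1.28 and 1.62. Leaf replicate 3 was at least 2-fold above the next leaf library in 11 clusters (12.9%), against 8.82% of all.

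**Figure D5:**
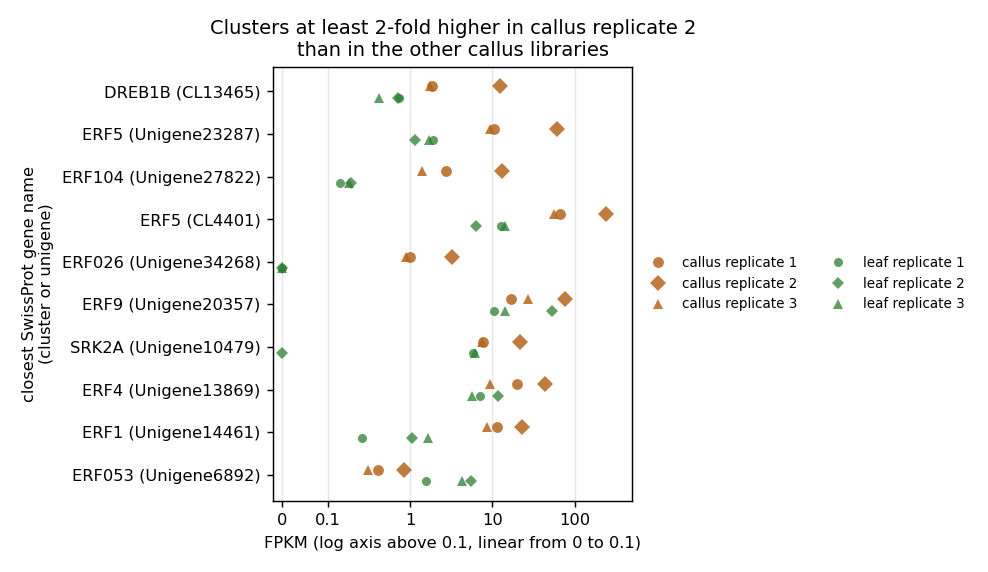
FPKM (horizontal axis, logarithmic above 0.1) of the 10 tested clusters in which callus replicate 2 was at least 2-fold above the other callus libraries, sorted by that ratio; brown symbols are callus and green symbols leaf libraries, with circles, diamonds and triangles for replicates 1, 2 and 3. The brown diamond is the rightmost brown symbol in each row, by 6.77-fold in DREB1B and by 2.05-fold in ERF053, and in ERF9 the leaf diamond is also the rightmost leaf symbol.

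Contigs of a cluster could move apart from their sum. In the 24 tested clusters with several tested AP2-EREBP contigs, every contig had the sign of the sum in 12, and 19 of the 90 contigs had the opposite sign. The widest spread was in DREB2B, where 3 of 6 contigs had the sign of the sum and the estimates ran from -6.33 to 9.41 around a summed value of -0.70. By contrast, all 9 contigs of the APETALA2-like cluster CL2858 and all 4 of PLT2 were above 0. In 6 of the 85 tested clusters less than 50% of the counts lay in AP2-EREBP contigs, and summing AP2-EREBP contigs alone gave 41 rises and 8 falls.

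The ethylene pathway itself, to which many ERF genes respond, had calls in both directions. Of 100 tested unigenes named for ACC synthase, ACC oxidase, ethylene receptors, CTR1, EIN2, EIN3 and the EIN3-binding F-box proteins, 16 rose and 7 fell. Of all unigenes tested, 14.2% rose and 12.3% fell, so the share that rose was near that of all and the share that fell was lower. The median log2 fold change was 0.15, against -0.10 over all unigenes tested. Per cluster 15 of 54 rose and 5 fell, where 22.0% and 20.8% of all clusters tested did. ACC oxidase, the last enzyme of ethylene synthesis, had 6 rises and 5 falls among 41 unigenes and summed to 770 ± 393 FPKM in callus and 955 ± 104 FPKM in leaves (SD, n = 3 each). The receptors summed to 67.2 ± 4.12 FPKM in callus and 41.5 ± 3.75 FPKM in leaves. EIN3-type factors, which stand directly above ERF genes, summed to 136 ± 27.9 FPKM in callus and 103 ± 1.21 FPKM in leaves, with 1 of 12 unigenes rising.

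Genes of the kinds that ERF and DREB proteins are known to bind in Arabidopsis were counted by name as well, and binding was not measured here. Of 134 tested unigenes, 48 rose and 8 fell, where 14.2% of all unigenes rose and 12.3% fell. The median log2 fold change was 1.82, against -0.10 over all. Per cluster 36 of 82 rose and 9 fell, where 22.0% and 20.8% of all clusters tested did. Defence genes made up most of the rises, with 27 of 86 beta-1,3-glucanase unigenes, 7 of 17 chitinase unigenes and 7 of 11 defensin unigenes rising. Defensins, small antimicrobial proteins, summed to 5962, 929 and 2038 FPKM in callus replicates 1 to 3 and to 44.9, 20.7 and 48.1 FPKM in leaf replicates 1 to 3. Callus replicate 1 was the highest for defensins, while callus replicate 2 was the highest for most AP2-EREBP members. Among proteins that protect against water loss and stress, late embryogenesis abundant proteins summed to 361 ± 32.3 FPKM in callus and 124 ± 31.2 FPKM in leaves, with 5 of 13 unigenes rising and 1 falling. Osmotins summed to 386 ± 47.1 FPKM in callus and 26.4 ± 22.6 FPKM in leaves, with 2 of 4 rising. Dehydrins, also of this kind, had 16 ± 4.71 FPKM in callus and 231 ± 113 FPKM in leaves, with 1 of 3 unigenes falling. Per cluster, 5 of 11 late embryogenesis abundant clusters rose and 2 fell. Of the osmotin clusters 1 of 2 rose, and of the dehydrin clusters 2 of 2 fell.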

How the data were processed

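RNA-seq of 3 callus and 3 leaf samples was analysed. The authors filtered the reads, assembled unigenes with Trinity and TGICL, aligned reads with Bowtie2 2.2.5 and quantified them with RSEM 1.2.8. The deposited expected counts are unnormalized RSEM estimates of reads for each unigene. The deposited FPKM are the same estimates per length and library size. The authors' own fold changes and p-values were not used. Per the study's methods the replicates were independent, and numbers here follow sample order only.

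Expected counts were summed per CL number, rounded, and tested with edgeR 4.0.16 (TMM, filterByExpr, quasi-likelihood, all features in 1 fit). A call needed an adjusted p of 0.05 or less, because edgeR called 0 unigenes at the study's thresholds, which were set for DESeq2. Alternatives were DESeq2 1.42.0 (also its size factors), limma 3.58.1 on log2(FPKM + 0.01) and log2(FPKM + 1), no filter, no peanut-matching unigenes, AP2-EREBP contigs only, and each library left out. Tests were tried on simulated data.

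Name groups came from SwissProt names, APETALA2-like proteins counting as AP2-like. A cluster took the name of its most abundant AP2-EREBP contig. Named clusters are the 4 most abundant of each group, the 5 largest called rises and 5 largest falls, and those on lists of known regulators. Members and lists were chosen with earlier results of these data known.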

Additional observations from a re-analysis of the deposited data

Results flagged for a closer look

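The 4 AP2-EREBP unigenes with a peanut (*Arachis*) match, left out of the members, held 0 counts in each callus library and 78.0, 3 and 0 counts in leaf replicates 1 to 3. They were flagged as a signal outside the reported comparison. The RAP2-4 match carried 65 of the 78.0 counts. Unigenes of any kind with an *Arachis* match took 0.178% to 0.186% of the counts in callus libraries, 1.17% in leaf replicate 1 and 0.250% to 0.347% in the other leaf libraries. The calls of members per cluster were 42 rises and 8 falls with these unigenes taken out of the fit, as with them.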

How the results depend on the processing

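Under the study's thresholds, edgeR called 0 member unigenes in either direction (65 higher and 12 lower at an unadjusted p under 0.05; DESeq2 at the same thresholds 42 and 7), and per cluster 3 higher and 0 lower (46 and 9 unadjusted; DESeq2 33 and 4), of which 2 ethylene-responsive, 1 AP2-like, 0 dehydration-responsive and 0 RAV. For the DESeq2 counts at these thresholds and for the unadjusted counts, shares over all features were not computed. With DESeq2 at an adjusted p of 0.05, 62 member unigenes rose and 14 fell, and 47 and 9 of 97 clusters. The ethylene pathway then had 25 rises and 14 falls, and the kinds of genes bound by ERF and DREB proteins 70 and 15. Without the filter, 1 dehydration-responsive cluster was called.

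Leaving out 1 library gave 3 to 47 unigenes higher and 0 to 11 lower, 33 to 40 clusters higher and 4 to 10 lower, 1 to 4 dehydration-responsive calls and 0 to 1 RAV calls. Shares over all features were not counted in these fits. The estimates that changed sign were not called in any fit: At1g51120 ran from -0.53 to 0.52 (CL4741) and from -0.34 to 0.48 (Unigene37070_All), and DREB2E from -0.0074 to 0.30. The causes were not tested. TMM against DESeq2 size factors, and AP2-EREBP contigs alone, changed no call of the 37 named clusters. Counting only clusters with at least 50% of their counts in AP2-EREBP contigs, chosen after seeing the data, gave 41 rises and 8 falls. With 3 libraries per tissue and totals of 17963458 to 19444638 counts, 13 of 98 clusters were too sparse to test.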

Other observations

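Further ethylene-responsive members outside the rule for named clusters, chosen after their values were seen, were almost silent in leaves. ERF037 (Unigene21532_All) had 61, 34 and 41 counts in callus and 1 count in each leaf library, a ratio of 43.9 (95% exact interval of the counts 14.7 to 216). ERN1, named after a nodulation factor of Lotus (Unigene27411_All), had 25, 22 and 16 counts in callus and 0, 0 and 1 counts in leaves, a ratio of 61.1 (10.6 to 2450). An ERF003 unigene (Unigene26790_All) had 49.8, 23.8 and 30.5 FPKM in callus, against 0.12, 0.31 and 1.76 FPKM in leaves, with a log2 fold change of 5.47 ± 1.00 (edgeR adjusted p = 0.00771).

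Members with other names included matches to protein kinases, NLP proteins, an extensin-like protein and a defensin-like protein, whose membership rests on the authors' family assignment. The called rise of this group was the extensin-like LRX6 match (Unigene16862_All, log2 fold change 2.91 ± 0.67, adjusted p = 0.0163). Its nearest database protein is an integrase-type DNA-binding protein. The tomato Pto-interacting factors, also of this group, gave no call. PTI6 (Unigene30002_All) had 41.4, 67.3 and 42.4 FPKM in callus and 23.8, 34.8 and 31.4 FPKM in leaves, a log2 fold change of 0.64 ± 0.25 (adjusted p = 0.0840), and PTI5 (Unigene13922_All) had -0.13 ± 0.86. Sparse members that were not tested included an ERF2 unigene (Unigene36828_All) with 4, 7 and 2 counts in callus and 6, 48 and 68 counts in leaves. A DREB2A unigene (Unigene36515_All) had 23, 12 and 8 counts in callus and 1, 5 and 0 in leaves, the opposite order to the DREB2A cluster that fell.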
